A study of Mus musculus with 3 samples.

Results

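Lysosomal hydrolases and membrane proteins were followed in VE-cadherin+ CD45+ cells sorted from mouse yolk sac. The group was set by name: all non-control probes of the array whose gene name is 1 of 35 genes for cathepsins, glycosidases, lipid-handling proteins, lysosomal membrane proteins and the regulator Tfeb. The rule found 40 of 55681 probes, for 34 of the 35 genes. The array names no probe Tfeb; a probe named Tcfeb, an older symbol of that gene, is described apart. To be tested, a probe had to be well above background in every sample of at least 1 group, that is in the control or in both Tie-2-Etv2 samples. This gave 33 members among 19583 tested genes. Of these, 32 were well above background on all 3 arrays. Ctse passed the filter only through the group in which it was bright, so it had to differ. Ctsk was not above background on any array and was not tested.

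The control group is 1 sample of E10.5 embryos. The Tie-2-Etv2 group is 2 samples whose age the labels do not state. In it an Etv2 transgene was turned on by a Tie-2-driven Cre transgene. All 3 samples have a mixed strain background (B6/CBA and others), were sorted on VE-cadherin and CD45 by flow cytometry without treatment afterwards, and were hybridised to 1-colour Agilent arrays of 1 slide. The labels do not give the control's own transgene status beyond the word control, nor how many embryos went into a sample. Whether the Tie-2-Etv2 pair stems from different litters is not stated either. The p-values below rest on the spread between the 2 Tie-2-Etv2 samples alone, moderated over all tested probes, and that spread may be technical. The single control adds no spread of its own.

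Lysosomes are acidic organelles that break down proteins, glycans and lipids delivered by endocytosis, phagocytosis and autophagy. Soluble hydrolases work in their lumen, heavily glycosylated membrane proteins line them, and a proton pump, the V-ATPase, keeps them acidic. Macrophages, which clear dead cells in the yolk sac and embryo, are known for a high content of lysosomal proteases, and visceral endoderm of the yolk sac is known for a large lysosomal compartment as well. Tfeb and its relatives Tfe3 and Mitf bind a CACGTG-containing element in promoters of many lysosomal genes.

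Promoters are shown here because that element links many of the members, and because the members described below differ in whether they hold it. RefSeq promoter windows (GRCm38.p6, 250 bases before to 50 after a gene start) matched 30 of the 35 genes. The letters CACGTG, which read the same on both strands, were in a window of 10 of these 30 genes (33.3%), against 8.09% of 27025 genes with a window. The longer form TCACGTGA, which contains CACGTG, was in 4 of 30 (13.3%) against 1.12%. A match describes letters only. The 120 bases just before the start are printed below 5′ to 3′ on the gene's strand, with CACGTG in capitals, for 3 cysteine proteases with large differences between the groups (Ctss, Lgmn and Ctsf) and 2 membrane proteins, Lamp1 with a difference at the median of the members and Mcoln1 with one near 0. They lie at chr3:95526666-95526785 (Ctss, plus strand), chr12:102439093-102439212 (Lgmn, minus strand), chr19:4855045-4855164 (Ctsf, plus strand), chr8:13159041-13159160 (Lamp1, plus strand) and chr8:3500399-3500518 (Mcoln1, plus strand).
Ctss: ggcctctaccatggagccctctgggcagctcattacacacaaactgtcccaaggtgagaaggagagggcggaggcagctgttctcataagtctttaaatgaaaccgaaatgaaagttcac
Lgmn: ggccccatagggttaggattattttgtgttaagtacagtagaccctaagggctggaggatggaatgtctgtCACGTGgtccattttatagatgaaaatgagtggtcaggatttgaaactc
Ctsf: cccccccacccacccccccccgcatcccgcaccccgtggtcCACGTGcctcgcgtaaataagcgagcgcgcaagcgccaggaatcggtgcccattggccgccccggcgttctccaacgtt
Lamp1: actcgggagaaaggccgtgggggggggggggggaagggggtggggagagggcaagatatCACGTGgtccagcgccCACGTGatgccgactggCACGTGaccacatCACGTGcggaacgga
Mcoln1: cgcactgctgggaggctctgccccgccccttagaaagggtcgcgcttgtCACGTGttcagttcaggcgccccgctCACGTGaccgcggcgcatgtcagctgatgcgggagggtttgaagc
The stretch of Lamp1 held 4 copies of CACGTG, that of Mcoln1 held 2, those of Lgmn and Ctsf held 1 each and that of Ctss held 0. Lgmn has a second window without the letters, and the window with more copies of CACGTG was the one printed. Among the 10 members with a window that were 2-fold or more lower in both Tie-2-Etv2 arrays, 4 held CACGTG (40.0%), and among the other 18 tested members with a window 6 did (33.3%).

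Levels below are log2 signal relative to the 75th percentile of the detected probes of the same array, differences are Tie-2-Etv2 minus control on the log2 scale, and levels of different genes are not comparable. The labels' transgene was visible: 1 Etv2 probe exceeded the control 21.5-fold on replicate 1 and 9.30-fold on replicate 2, and the other 6.33-fold and 3.95-fold. Ptprc, which encodes the CD45 used for sorting, was detected on all 3 arrays at -1.08, -1.51 and -1.58. Cdh5, which encodes VE-cadherin, was detected on all 3 as well, at -4.08 on the control array and at 0.39 and -1.48 on the Tie-2-Etv2 arrays. Between 24222 and 27018 probes per array were well above background. Spot noise was small for the bright Gusb probe, whose 10 spots had an SD of 0.0529 to 0.0611 on the log2 scale within an array. This value does not cover dim probes. The number of arrays, 1 against 2, limits the precision.

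The lysosomal genes lay mostly below the control, and the cysteine proteases had the lowest median of the role groups. Of the 33 tested members, 13 were 2-fold or more lower than the control on each Tie-2-Etv2 array, against 6.64% of all tested genes, and 1 (Ctse) was 2-fold or more higher, against 3.92%. Counting only members detected on all 3 arrays, 13 of 32 were lower, against 3.44% of such genes, and 0 were higher, against 2.91%. The median difference of the 33 members was -0.89, with -1.10 on replicate 1 and -0.79 on replicate 2, where the median of all tested genes was 0.067. The control lay above both Tie-2-Etv2 arrays for 28 members (30.9% of all genes) and below both for 1 (42.5%), and replicate 1 lay below replicate 2 for 23 (45.0% of all genes). In limma's test 0 members passed an adjusted p of 0.05, as 0.0% of all genes did. With normexp background correction 10 members passed, all lower (1.87% of all genes passed lower, 1.27% higher). With no filter on dim probes Ctss and Lgmn passed as lower (0.859%) and Ctse as higher (0.36%). At an unadjusted p under 0.05, 11 members were lower (6.36% of all genes) and 1 was higher (4.41%). The members detected on all 3 arrays ran from -4.10 (Ctss) to 0.21 (Man2b1), and Ctse, undetected on the control array, was above it by at least 2.92. With replicate 2 left out, 19 members were 2-fold or more lower, and with replicate 1 left out, 14. In bulk samples such as these, fewer cells of a type and less RNA per cell cannot be told apart.

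**Figure D1:**
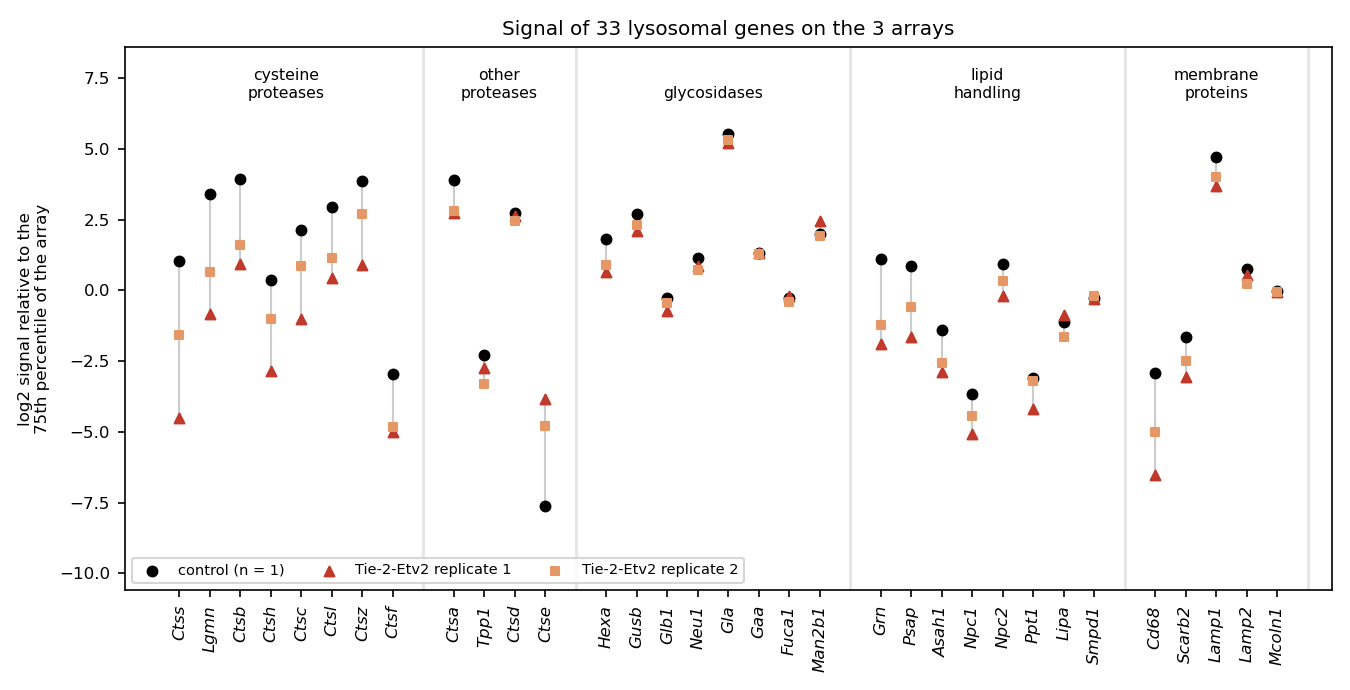
Log2 signal of the 33 tested lysosomal genes relative to the array's 75th percentile (y axis), by role group and ordered within it by difference (x axis), with 1 point per array. The 8 cysteine proteases have the control above both Tie-2-Etv2 arrays with a wide gap, most glycosidases have the 3 points close together, and the control point of Ctse, below both others, was not above background.

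The cysteine proteases stood lowest. All 8 tested members (Ctss, Lgmn, Ctsb, Ctsh, Ctsc, Ctsl, Ctsz and Ctsf) were 2-fold or more lower in both Tie-2-Etv2 arrays, with a median difference of -2.24, and all 8 were lower on replicate 1 than on replicate 2. These enzymes of the papain and legumain families cut internalised proteins, process other hydrolases and, in antigen-presenting cells, trim the invariant chain of MHC class II. Their adjusted p in limma's test was 0.238 to 0.54. Ctss, an elastin-cutting protease of macrophages and dendritic cells, stood at 1.05 in the control, -4.51 on replicate 1 and -1.59 on replicate 2. Averaged over the pair it was 17.1-fold lower (log2 difference -4.10 ± 1.31, SE), and the 2 replicates were far apart, at 46.9-fold and 6.23-fold lower. Its probe lies at 95360245 to 95360304 of chromosome 3 (mm9), from base 1274 of its transcript.

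Lgmn, the asparaginyl endopeptidase legumain that activates several cathepsins, stood at 3.42 on the control array and at -0.84 and 0.64 on the Tie-2-Etv2 arrays. That is 11.4-fold lower (-3.51 ± 0.72, SE), the second lowest member. Its probe lies at 103632415 to 103632474 of chromosome 12 (mm9). Ctsb, a broadly expressed endo- and exopeptidase, had levels of 3.93, 0.92 and 1.60, a 6.37-fold difference in which the 2 replicates were closer to each other (-3.01 and -2.33). Ctsl, an endopeptidase, had levels of 2.93, 0.45 and 1.15 and was 4.39-fold lower.

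For Ctsh, Ctsc and Ctsz the replicates spread more. Ctsh, an aminopeptidase, had levels of 0.37, -2.83 and -1.01. Ctsc, dipeptidyl peptidase I, which activates granule serine proteases of neutrophils and mast cells, had levels of 2.13, -1.02 and 0.88. Ctsz, a carboxypeptidase, had levels of 3.85, 0.91 and 2.70. In each of the 3 the replicate 1 array lay more than 1 log2 unit below replicate 2, and replicate 2 was 2.59-fold, 2.37-fold and 2.22-fold below the control for Ctsh, Ctsc and Ctsz. Averaged over the pair, Ctsf had the smallest difference of the 8 (-1.95 ± 0.33, SE), though on replicate 2 alone Ctsz, Ctsc, Ctsh and Ctsl differed less. It went from a level of -2.96 on the control array to -5.01 and -4.82. With normexp background correction its difference was -1.17. Ctsk, the collagen-degrading cathepsin of osteoclasts, was not above background on any array.

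The other proteases did not move as one. Ctsa, protective protein and serine carboxypeptidase, which holds Neu1 and Glb1 in a stable complex, had levels of 3.89, 2.75 and 2.82 and was 2.15-fold lower, just past 2-fold on replicate 2 (-1.07). Its second, dimmer probe gave 0.68 on replicate 1 and -1.78 on replicate 2, so the 2 probes of Ctsa disagreed. Ctsd, the main aspartic protease of lysosomes, differed by -0.20 ± 0.33 (SE), with levels of 2.75, 2.64 and 2.46, and its second probe by -0.31 (-0.52 on replicate 1 and -0.11 on replicate 2). Tpp1, a tripeptidyl peptidase, had levels of -2.28, -2.74 and -3.32. Ctse, an aspartic protease of endosomes in immune and gastric cells, was the only member above the control in both arrays. It was not well above background on the control array and had levels of -3.82 and -4.80 on the Tie-2-Etv2 arrays. The mean of both was at least 7.58-fold higher, with log2 bounds of 3.41 on replicate 1 and 2.43 on replicate 2, and limma's adjusted p was 0.236. A bound sets the brighter group against the lowest detected level of the dim array or the dim probe's own value, whichever is higher. With normexp the log2 difference of Ctse was 1.40. Its probe lies at 133571990 to 133572049 of chromosome 1 (mm9).

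The glycosidases, which strip sugars from glycoproteins, glycolipids and glycogen, lay near the control. Of 8 members 0 were 2-fold apart in both arrays, and the median difference was -0.29. Hexa, the alpha subunit of beta-hexosaminidase, came closest, with levels of 1.81, 0.66 and 0.91 and differences of -1.15 and -0.90, just short of 2-fold on replicate 2. Gusb, beta-glucuronidase, whose probe is printed in 10 spots per array, had levels of 2.70, 2.10 and 2.31, a difference of -0.49 ± 0.33 (SE). Glb1, beta-galactosidase, Neu1, a sialidase, and Gla, alpha-galactosidase, differed by -0.34, -0.33 and -0.25. Gaa, acid alpha-glucosidase, had levels of 1.34, 1.32 and 1.29, and its second, much dimmer probe differed by -0.50 on replicate 1 and 0.70 on replicate 2. Fuca1, alpha-fucosidase, had levels of -0.28, -0.19 and -0.40. Man2b1, lysosomal alpha-mannosidase, was the only glycosidase whose brightest probe had a mean difference above 0 (0.21, from 0.47 on replicate 1 and -0.04 on replicate 2). With the authors' log2 table Gaa stood at 0.08, but there its dimmer second probe was taken. For Fuca1 and Man2b1 the control lay between the 2 Tie-2-Etv2 arrays. Adjusted p in limma's test was 0.436 to 0.996 for the 8. These standard errors of 0.32 to 0.39 on the log2 scale leave room for differences the 3 arrays cannot show.

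**Figure D2:**
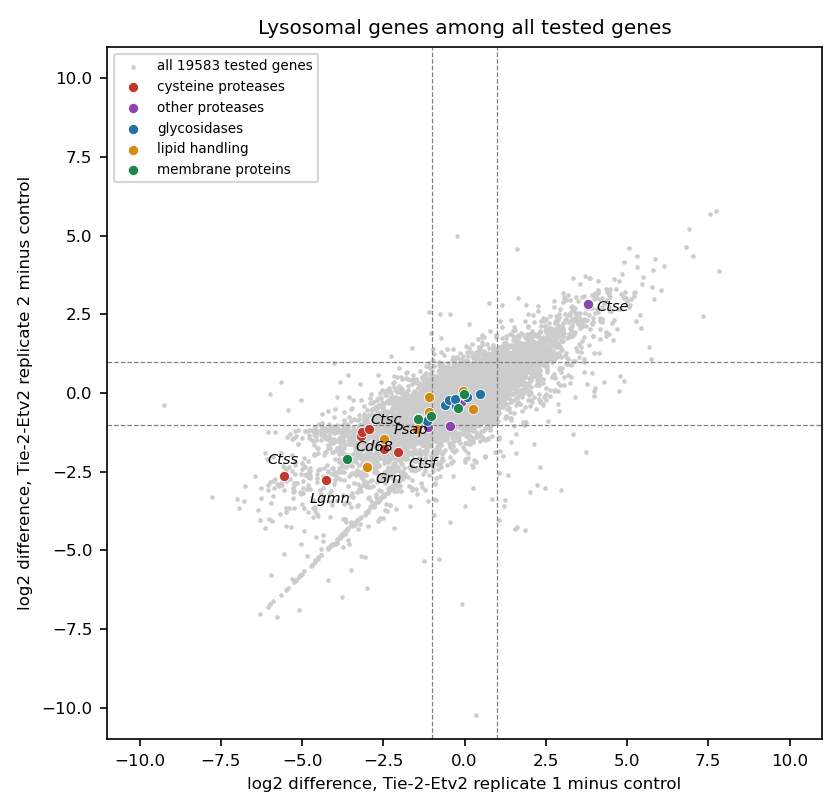
Log2 difference from the control on Tie-2-Etv2 replicate 1 (x axis) and replicate 2 (y axis) for 33 lysosomal genes coloured by role and all 19583 tested genes in grey, with dashed lines at 2-fold. Both axes use the same control array; 13 lysosomal genes lie beyond both lines on the lower side and Ctse on the upper side.

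Of 8 proteins assigned to lipid handling, 3 were 2-fold or more lower in both arrays (Grn, Psap and Asah1), and the median difference was -0.98. Grn encodes progranulin, a secreted and lysosomal protein that supports hydrolase function and is made in quantity by macrophages and microglia. It stood at 1.11 on the control array and at -1.88 and -1.22 on the Tie-2-Etv2 arrays, 6.35-fold lower (-2.67 ± 0.43, SE; adjusted p = 0.236 in limma's test). Psap, the precursor of the saposins that present sphingolipids to their hydrolases, stood at 0.86, -1.63 and -0.59, 3.91-fold lower. Asah1, acid ceramidase, stood at -1.41, -2.89 and -2.55, 2.47-fold lower, and its second probe was 1.79-fold lower.

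The other 5 did not reach 2-fold in both arrays. The cholesterol carriers Npc1 and Npc2 each passed 2-fold on replicate 1 only, at -1.42 and -0.79 for Npc1 and -1.10 and -0.60 for Npc2. Ppt1, which removes palmitate from proteins, was at -1.10 and -0.11. Lipa, the acid lipase that hydrolyses cholesteryl esters, was at 0.25 and -0.52, on both sides of the control. Smpd1, acid sphingomyelinase, had levels of -0.26, -0.31 and -0.21, and its 3 arrays were the closest together of this group. Npc1 shrank to a mean difference of -0.49 with normexp.

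Among 5 membrane proteins, 1 was 2-fold or more lower in both arrays: Cd68, a heavily glycosylated LAMP-family protein of macrophage endosomes and lysosomes. Cd68 stood at -2.90 on the control array and at -6.53 and -5.00 on the Tie-2-Etv2 arrays, 7.27-fold lower (-2.86 ± 0.74, SE). The probe was dim, and with normexp the difference was -1.49. The general lysosomal membrane proteins were nearer to the control. Lamp1, with 4 copies of CACGTG in the stretch printed above, had levels of 4.73, 3.68 and 3.99 (-0.89 ± 0.35, SE). Lamp2 was at -0.34 ± 0.34 (SE) with its brighter probe and at -0.58 with the other, which was designed to another RefSeq transcript of the gene. Scarb2, the receptor that carries glucocerebrosidase to lysosomes, was at -1.43 and -0.84. Mcoln1, a lysosomal calcium channel, had levels of -0.01, -0.04 and -0.04, so its 3 arrays lay within 0.05 of each other.

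Tfeb itself was measured only through the probe named Tcfeb, which had levels of -2.97, -3.96 and -3.40, a difference of -0.71 ± 0.40 (SE; limma's adjusted p = 0.689). Its relatives Mitf and Tfe3 were further below the control. Mitf, which also drives osteoclast and mast cell genes, had levels of -1.75, -3.62 and -3.44 and a difference of -1.78 ± 0.33 (SE; adjusted p = 0.256). Tfe3 had levels of 1.56, -0.13 and 0.49 and a difference of -1.38 ± 0.42 (SE; adjusted p = 0.395). Tfec, a macrophage-enriched relative, differed by -0.04. Of the 12 tested genes of this list of MiT/TFE factors and of mTORC1 control at the lysosome, Mitf and Tfe3 were the 2 that lay 2-fold or more below the control in both arrays, 0 were 2-fold higher, and the median was -0.30.

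Other lysosomal genes, listed apart from the members, were mostly slightly below the control. None of these lists held a gene that passed limma's adjusted test. Counts for these lists, the MiT/TFE list above and the marker lists below are to be read beside the shares over all tested genes. By measured values those shares were 6.64% for 2-fold or more lower in both arrays and 3.92% for higher. Of 18 V-ATPase genes, 1 was 2-fold or more lower in both arrays by its measured values and 0 higher, with a median of -0.58. That gene was Atp6v0d2, a subunit of osteoclasts and macrophages, which was above background on the control array only. The control exceeded replicate 1 at least 1.73-fold and replicate 2 at least 2.84-fold, so 0 of the 18 were 2-fold lower in both arrays once undetected values stood at the detection limit. Of 25 other lysosomal enzymes and activators, 7 were 2-fold or more lower and 1 higher, with a median of -0.62. Among those furthest from the control, by the smaller of their 2 differences, were Scpep1, a serine carboxypeptidase (-3.24), Ifi30, the lysosomal thiol reductase of antigen processing (-3.35), and Acp2, lysosomal acid phosphatase (-2.04). The higher one, Idua, was 2.50-fold above the control and is named after its value was seen.

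Of 17 other lysosomal membrane proteins and transporters, 2 were lower by measured values (Slc11a1 and Tpcn2), 1 was higher (Slc17a5), and the median was -0.50. With undetected values at the detection limit 1 was lower (Slc11a1) and the median was -0.41. Slc11a1, the phagosomal metal transporter of macrophages, differed by -3.31 on replicate 2. On replicate 1 it was not above background, and the control exceeded it at least 139-fold. Tpcn2, a lysosomal cation channel, was above background on the control array only, and its mean over both Tie-2-Etv2 arrays was at least 1.23-fold lower, with no fold shown on replicate 1. Slc17a5, the sialic acid exporter, was 2.63-fold higher, with 1.66 on replicate 1 and 1.13 on replicate 2. Delivery to lysosomes showed 0 of 14 genes 2-fold apart and a median of -0.28, with M6pr, the smaller mannose 6-phosphate receptor, at -0.01. Autophagy genes showed 0 of 14 genes 2-fold apart and a median of -0.03.

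**Figure D3:**
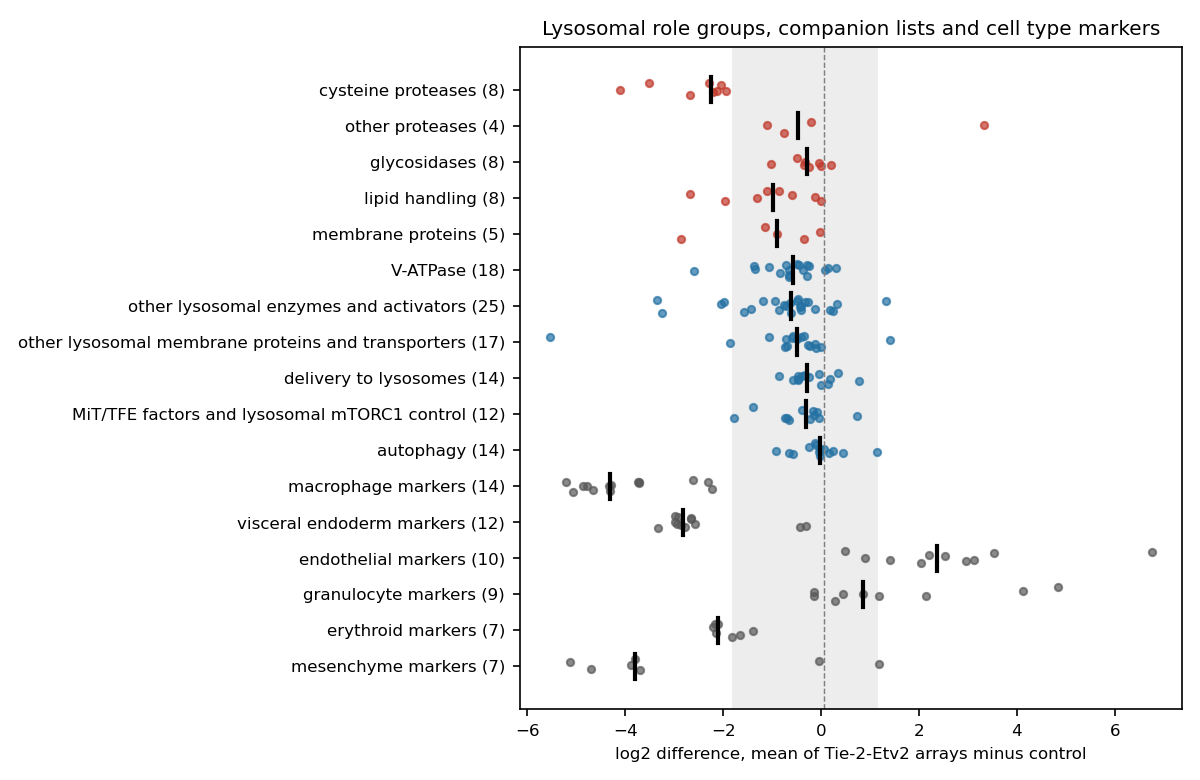
Log2 difference between the averaged Tie-2-Etv2 arrays and the control (x axis) for each tested gene of the lysosomal role groups (red), other lysosomal lists (blue) and cell type marker lists (dark grey), with the number of genes in parentheses and a black bar at the median. The grey band spans the 5th to 95th percentile of all tested genes (-1.79 to 1.15) and the dashed line marks their median. The cysteine proteases lie below the band, and the medians of macrophage, mesenchyme and visceral endoderm markers lie below theirs.

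Markers of other cell types moved beside these genes, and their part in the result was not tested. The macrophage list had 16 markers, of which 14 were tested, and all 14 lay 2-fold or more below the control on each Tie-2-Etv2 array, at a median of -4.31 (-5.24 on replicate 1, -2.93 on replicate 2), or -3.73 with undetected values at the detection limit. Their summed signal, relative to the 75th percentile on a linear scale, was 78.3 on the control array and 5.09 and 17.8 on the Tie-2-Etv2 arrays. Mertk and Timd4 were among the markers not above background on replicate 1, and Timd4 was not on replicate 2 either. Of the untested pair, Siglec1 was not above background on any array, and Cd163 was above it on replicate 1 only, at a level of -3.56. The summed signal of the 33 lysosomal genes, in which bright probes such as that of Gla weigh most, was 1.96-fold lower than the control on replicate 1 and 1.69-fold lower on replicate 2. Both sums were lowest on replicate 1, as were those of the visceral endoderm and erythroid markers below.

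Visceral endoderm markers were lower too, 9 of 12 by 2-fold or more in both arrays, at a median of -4.48 on replicate 1 and -1.18 on replicate 2. Their sum was 39.2 on the control array and 6.80 and 17.8 on the Tie-2-Etv2 arrays, with Foxa2 and Apoa4 not above background on replicate 1. Mesenchyme markers were lower in 5 of 7, at a median of -3.79, with a sum of 1.36 on the control array and 0.133 and 0.109. Of the rest, Pdgfrb differed by -0.05, and Twist1 was higher by measured values (0.99 on replicate 1, 1.39 on replicate 2). Pdgfra was not above background on any array and was not tested. Erythroid markers were lower in 5 of 7, at a median of -2.11, with a sum of 40.6 on the control array and 7.75 and 11.3. Endothelial markers were 2-fold or more higher in 8 of 10, with a sum of 2.27 on the control array and 11.9 and 4.52 on the Tie-2-Etv2 arrays. Granulocyte markers were higher in 4 of 9 and lower in 0, with a sum of 28.0 on the control array and 61.7 and 63.7. Sox17, Sox18, Ltf, Camp and Twist1 were not above background on the control array, and Timd4, Dcn and Lum on neither Tie-2-Etv2 array. These markers passed the filter only through the group in which they were bright, so they had to differ. With undetected values at the detection limit, the counts of 2-fold markers in all 6 lists stayed the same. By mean difference the lowest lysosomal members were Ctss, Lgmn, Cd68, Ctsb and Grn. The brightest probes of Ctsd, Gaa, Fuca1, Smpd1 and Mcoln1 lay within 0.29 of the control on both arrays. Whether the differences of the members follow those of any marker list was not tested.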

How the data were processed

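The authors read spot intensity with Agilent Feature Extraction, version 10.7.3.1 per the file headers (10.7 per the submitters' processing notes), with background subtraction and surrogates for very dim spots and no scaling between arrays of design 028005. The deposited log2 table has its scale and centring unstated; after an offset of 0.756 (replicate 1) or -0.0161 (replicate 2), its array-to-array differences equalled those of log2 processed signal within 0.01 for 100% of probes, and its column medians were 0, 0.136 and 0. It served as an alternative.

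Outlier spots (168 to 174 per array) were left out, no non-control spot was saturated, and spots of a probe were averaged. Each array was scaled by its 75th percentile over 22764 probes well above background on all 3 arrays. Tested were 26217 probes with limma 3.58.1 in R 4.3.3 (lmFit, eBayes, two-sided, Benjamini-Hochberg over probes, threshold 0.05). The 1 residual degree of freedom is that of the 2 Tie-2-Etv2 arrays, and the single control is assumed to vary as they do; an exact permutation test of 1 against 2 cannot go below 0.333. Tested on 5 sets of simulated data with 26217 probes, 200 of them changed, the fit recovered 0.4% of changes of 2 log2 units, 2.4% of 4 and 96.8% of 10. Recovery depends on the share of changed probes, which is unknown for these arrays, so these rates hold for the simulated setting only. Counts of genes 2-fold or more apart in both arrays carry no test. The brightest tested probe stands for a gene. With the authors' log2 table the same rule took the other probe for the members Gaa and Lamp2. Gene names of the other lists and of all genes were updated through RefSeq (GRCm38.p6): accessions placed 26582 probes, symbols 2602 and synonyms 492, and 26005 kept the file's name. Probe positions are on mm9 per the file headers.

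All 35 members were to be described, with values on every array for those 2-fold apart, and up to 4 such genes from each other list. The members and lists were chosen with earlier results of these data known. Alternatives varied scaling, background correction (normexp with an offset of 50), the filter, dim values, the choice of probe and the replicates used.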

Additional observations from a re-analysis of the deposited data

How the results depend on the processing

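The count of members 2-fold or more lower in both arrays was 13, and the same 13 genes, under 3 other scalings (75th percentile over all probes, quantile normalization, spike-in probes), normexp background correction, no filter on dim probes, the filter to probes detected on all 3 arrays, the authors' log2 table and dim values set to the lowest detected level. All 13 were detected on all 3 arrays, so the filter and dim-value settings left their values unchanged and could not lower the count. The count was 11 with the mean over all tested probes of a gene. With a Tie-2-Etv2 replicate left out it was 14 to 19, but this counts 1 array and cannot be below 13. The median difference stayed below 0 in all of these settings, from -1.10 to -0.79. The number of members that passed limma's test was 0 except with normexp, where 10 passed, all lower, and with no filter, where 3 passed: Ctss and Lgmn lower and Ctse higher. For these 2 settings limma estimated an infinite prior and one of 20.1 degrees of freedom, where the main setting had 2.93. The cause was not tested. The count of members 2-fold higher in both arrays was 0 with normexp and 0 with probes detected on all 3 arrays, since the latter leaves Ctse out. Among settings that keep both replicates, the sign turned for Gaa only where its dimmer second probe came in. That probe was taken with the authors' table (0.08) and averaged with the brighter one in the mean over its probes (0.03). Fuca1 went from -0.01 to 0.0 with normexp. Leaving out replicate 1 turned the sign of Man2b1 (-0.04) and Smpd1 (0.05), and leaving out replicate 2 that of Lipa (0.25) and Fuca1 (0.09). No paired analysis was possible because the labels give the control no replicate number. Detection limits Ctse, which was undetected on the control array. Cd68, Ctsf, Npc1 and Ppt1, detected on all 3 arrays but dim, had smaller differences with normexp. That setting adds an offset of 50 to every intensity, which by arithmetic shrinks the log2 differences of dim probes. How much of the change came from the offset was not tested.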

Other observations

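The letters CCGGAAG, a form of the site that many ETS factors bind, were also searched on both strands after the values were seen. They were in a window of 3 of 30 members with a RefSeq promoter window, against 9.93% of 27025 genes. The 3 were Npc2, Glb1 and Fuca1, whose log2 differences were -0.85, -0.34 and -0.01. Among the 10 members with a window that were 2-fold or more lower in both arrays, 0 held these letters. The absence says only that these letters are not in these windows.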
